A study of Mus musculus with 8 samples.

Results

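The proteasome genes of splenic CD8+ T cells were followed through culture, in mice with and without deletion of *Satb1*. The genes were chosen by name alone, as every symbol of the deposited tables that begins with *Psma* to *Psmg* and a number, with symbols marked as pseudogenes (-ps) left out. The rule found 50 symbols among the 48321 listed, and 4 -ps symbols were left out. Of the 50, 48 passed the filter on low counts and were tested among 12597 genes. The *Psma8* and *Psmb11* symbols did not pass. All 50 are genes of the proteasome, its regulators or its assembly chaperones, except *Psmc3ip*, which encodes a partner of meiotic recombinases and matched through its name.

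The proteasome is the protease that degrades ubiquitin-tagged proteins in the cytosol and nucleus. Its 20S core is a barrel of stacked alpha and beta rings in which a few beta subunits cut, and a 19S cap recognises, unfolds and feeds the substrate. In lymphocytes and in cells exposed to interferon gamma the cutting subunits are replaced by the induced subunits *Psmb8*, *Psmb9* and *Psmb10*, which gives the immunoproteasome and changes the peptides offered to MHC class I.

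RNA was sequenced from 8 libraries of peripheral CD8+ T cells of C57BL/6 spleen, 2 in each of 4 groups (WT and KO, at day 0 and at day 5 of culture). The series describes mice with floxed alleles, *Satb1* F/F with *E8I-cre*, a Cre transgene under a *Cd8* enhancer that acts in mature CD8 T cells. The labels give genotype as WT or KO only, so the alleles of the WT mice are unknown, and the stimulus is described no further than in vitro stimulation. They do not say whether the 2 libraries of a group came from separate animals or cultures, so p-values measure only the spread between these libraries, which may be technical.

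The deleted gene was read first in every library. *Satb1* gave 97.8 and 91.6 CPM (counts relative to the library total, scaled by trimmed mean of M-values) in WT at day 0, 144 and 125 in KO at day 0, 96.5 and 116 in WT at day 5, and 56.5 and 62.3 in KO at day 5. At day 0 the KO libraries were thus above WT, against their label, by a log2 fold change of 0.51 ± 0.15 (SE), with an edgeR FDR of 0.125. At day 5 they were below it by -0.84 ± 0.15, with an edgeR FDR of 0.0162. The counts do not tell a deleted transcript from an intact one, and each KO group below is therefore the set of libraries labelled KO.

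The smallest library held 4170126 gene counts and the largest, KO replicate 1 before culture, 11117971. The 4 CD8 T cell markers (*Cd8a*, *Cd8b1*, *Cd3e* and *Cd3d*) summed to between 7250 and 8206 CPM at day 0 and between 4096 and 4668 at day 5. Of these, *Cd8b1* and *Cd3e* fell in both genotypes. *Cd8a* fell in WT (-0.87) and was not called in KO (-0.21), and *Cd3d* was called in neither (0.02 and 0.04). At day 5 *Cd8a* was higher in KO than in WT, by 0.60 ± 0.11 (edgeR FDR 0.0155). Both CD4 T cell markers stayed under 5 CPM in every library, as did both natural killer and all 3 erythroid markers. Of the 5 B cell markers, *Cd79b* alone exceeded 5 CPM, at 118 to 164 CPM at day 0 and 66.7 to 83.3 at day 5. Of the 5 myeloid markers 3 were tested and they moved in opposite directions. *Cd68* rose to between 30.7 and 68.4 CPM at day 5 and took the list's sum from between 12.4 and 22.2 CPM to between 34.8 and 73.6. *Csf1r* fell in both genotypes (-1.19 in WT and -1.18 in KO). *Itgam* fell in WT from 3.22 and 5.20 CPM to 0.529 and 0.482, too low at day 5 for a fold to be given. Of 5 dendritic cell markers *Zbtb46* alone exceeded 5 CPM, and that list summed to between 11.4 and 16.5 CPM at day 0 and between 5.64 and 7.47 at day 5. Their part in the results on proteasome genes was not tested. In bulk RNA, fewer cells of a type and less RNA per cell cannot be told apart.

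**Figure D1:**
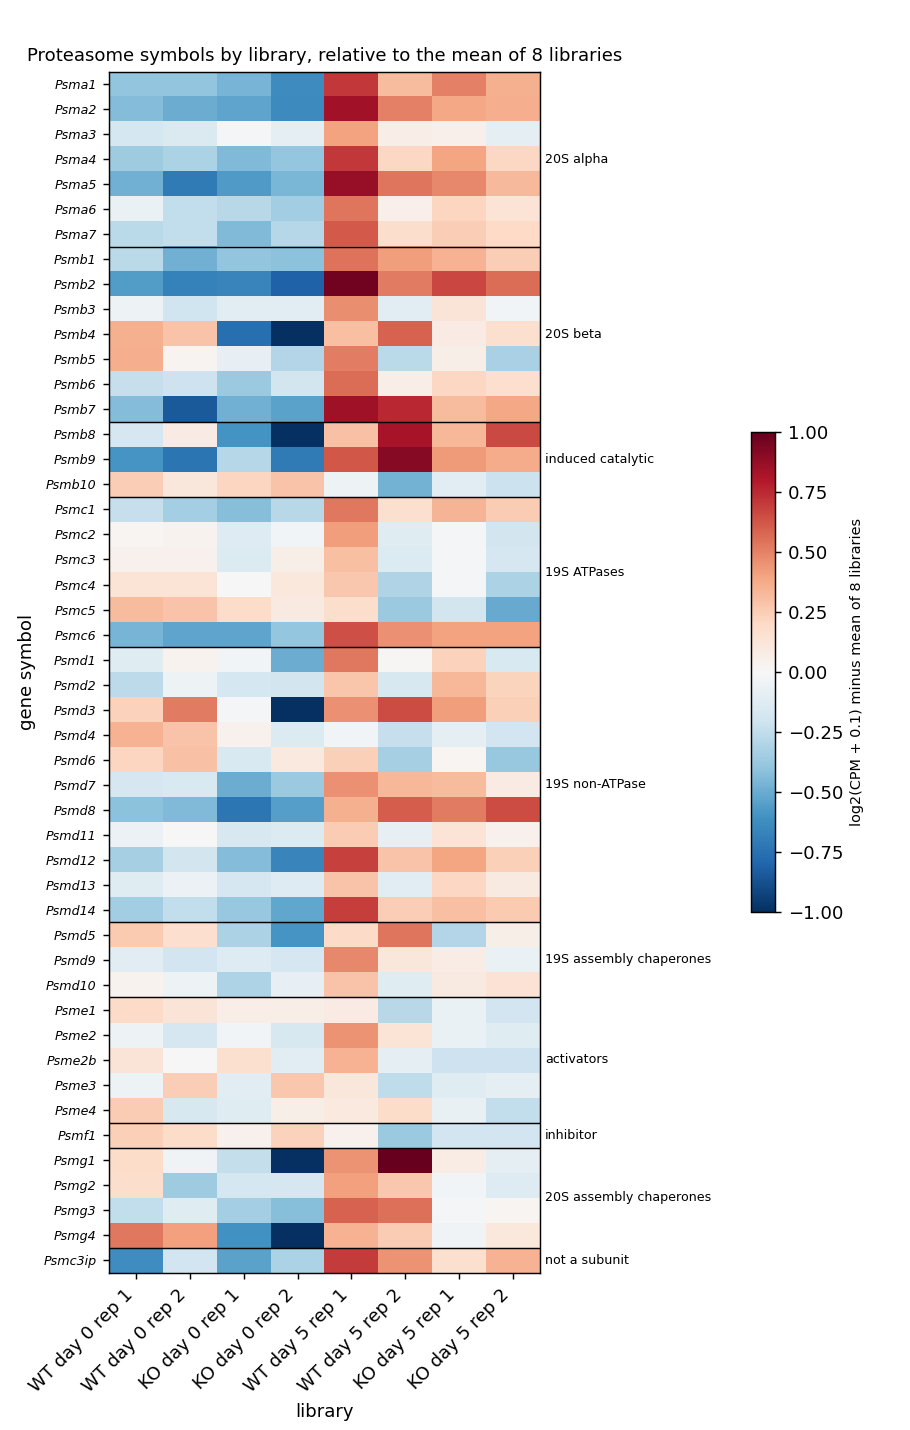
Each row is 1 of the 48 tested symbols, grouped by role, and each column 1 of the 8 libraries; colour gives log2(CPM + 0.1) minus the gene's mean over the libraries, with values beyond 1 drawn at the limit of the scale. Most 20S rows turn from blue at day 0 to red at day 5, replicate 1 of WT at day 5 is redder than replicate 2 in most rows, and *Psmb10* runs the opposite way.

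The question put to the culture was which parts of the complex changed between day 0 and day 5. Of the 14 constitutive 20S subunits tested, 11 rose in each genotype, and of the 17 subunits of the 19S cap 6 rose in WT and 7 in KO. In WT 23 of the 48 rose and 2 fell at an FDR under 0.05, in the quasi-likelihood test of edgeR with Benjamini-Hochberg adjustment over all tested genes. Of all tested genes, 24.7% were called higher and 23.6% lower in the same comparison. In KO 22 rose and 2 fell, where 26.2% of all tested genes were called higher and 24.0% lower. Counts by role below are to be read against these shares. The median log2 fold change of the 48 was 0.41 in WT and 0.42 in KO, beside -0.04 and -0.05 over all tested genes.

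The higher and lower split depended on scaling. With library totals alone, which moved the median of all genes to -0.17 in WT and -0.23 in KO, 18 rose and 5 fell in WT, and 18 rose and 7 fell in KO. Of all tested genes 21.2% were then called higher and 28.3% lower in WT, and 21.9% and 31.25% in KO. With an offset for GC content and exon length (all-gene medians -0.19 and -0.20), 13 rose and 7 fell in WT, and 13 rose and 8 fell in KO. With that offset 20.6% of all tested genes were called higher and 28.1% lower in WT, and 22.2% and 29.85% in KO. Relative to all genes, the proteasome median was higher by 0.45 (WT) and 0.46 (KO) as reported, by 0.44 and 0.46 with library totals, and by 0.32 and 0.37 with the offset.

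Both genotypes called 20 of the 48, of which 19 rose in both and *Psmb10* fell in both. These 19 were 19 of the 23 risers of WT and 19 of the 22 of KO. All 4 day 5 libraries lay above all 4 day 0 libraries for 21 of the 48, an arrangement seen in 27.2% of all tested genes. The reverse held for *Psmb10* and *Psmf1*, where 25.8% of all tested genes showed it. As a share of all counts assigned to genes, the 50 symbols held between 1.11% and 1.20% at day 0 and between 1.28% and 1.62% at day 5.

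**Figure D2:**
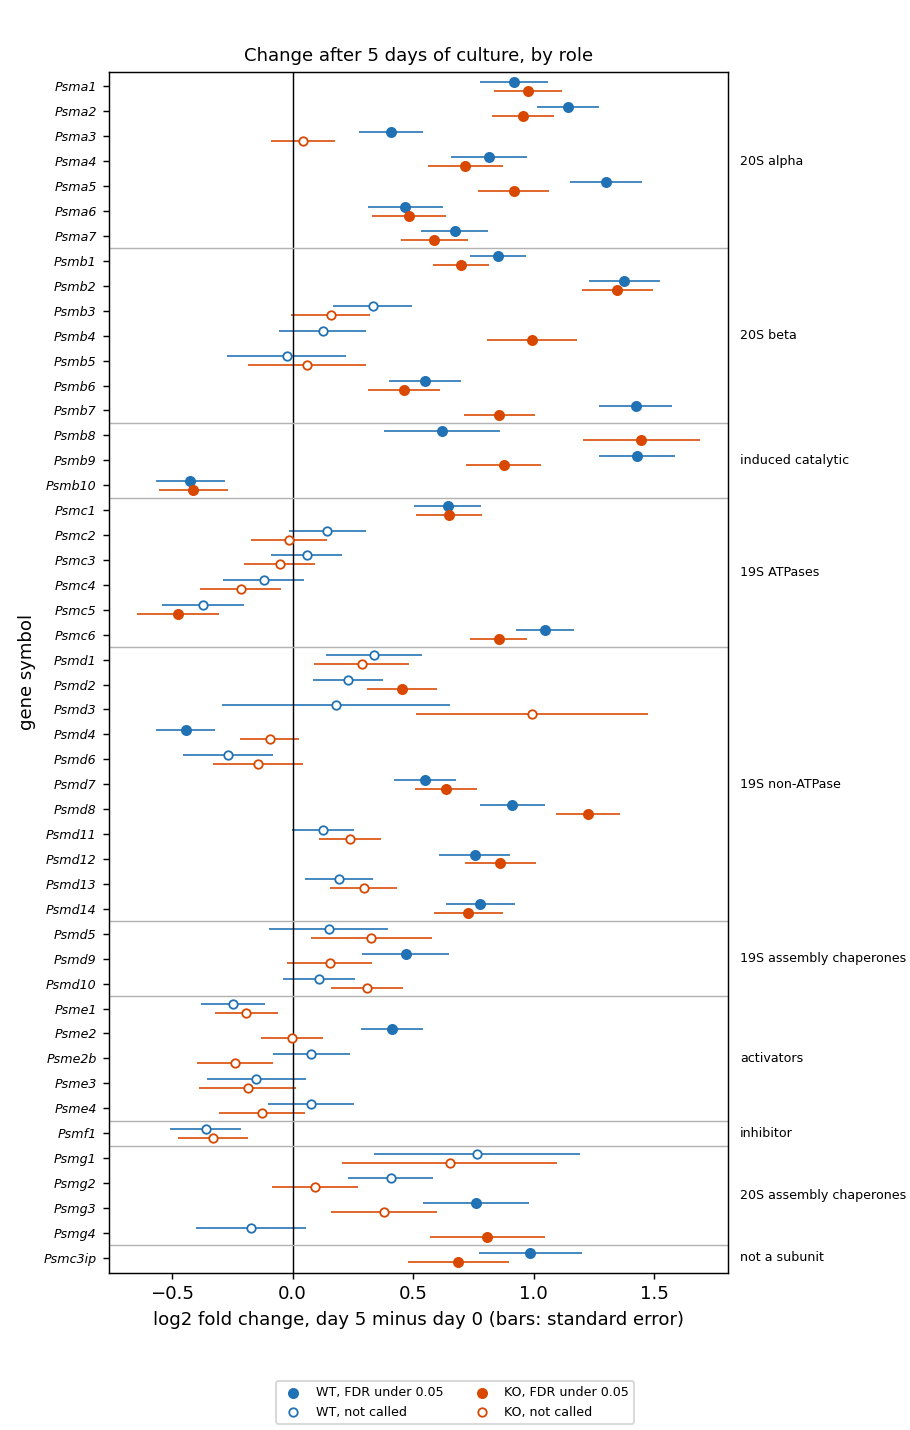
Points give the log2 fold change between day 5 and day 0 of each tested symbol in WT (blue) and KO (orange), bars its standard error, and filled points those called at an FDR under 0.05. The 20S alpha genes lie to the right of 0 in both genotypes, while 4 of the 6 ATPases and the activators, except *Psme2* in WT, lie around or below it.

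The alpha subunits form the outer rings of the barrel and its gate. All 7 tested rose in WT, by log2 fold changes from 0.41 (*Psma3*) to 1.30 (*Psma5*), and 6 rose in KO, the exception being *Psma3* at 0.04. In *Psma5* the values were 110 and 94.5 CPM in WT at day 0 and 282 and 223 CPM at day 5, and in KO 104 and 112 CPM became 215 and 193. No day 5 library reached down to a day 0 library, and the change was 1.30 ± 0.15 in WT (edgeR FDR 1.6e-05) and 0.92 ± 0.15 in KO (edgeR FDR 0.000232). Of the 50-base stretches of *Psma5*, 50.0% also occur in other genes, and reads that aligned to more than 1 place were not counted.

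*Psma1* and *Psma2* sit in the same ring. The *Psma2* gene gave 406 and 390 CPM in WT at day 0 and 982 and 776 at day 5, and 381 and 352 CPM in KO at day 0 and 715 and 706 at day 5. Its change was 1.14 ± 0.13 in WT (edgeR FDR 1.35e-05) and 0.96 ± 0.13 in KO. The *Psma1* gene went from 335 and 336 CPM to 719 and 549 in WT, and from 320 and 285 CPM to 627 and 565 in KO. For both genes the groups of the 2 days did not overlap, and *Psma1* changed by 0.92 ± 0.14 in WT and 0.98 ± 0.14 in KO, with an edgeR FDR of 9.57e-05 in KO. The alpha subunit of germ cells, *Psma8*, had at most 2 counts in any library, under the floor of 3 counts that separates a signal from none here.

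Among the 7 constitutive beta subunits, 4 rose in WT and 5 in KO. *Psmb2*, a structural beta subunit, stood at 363 and 334 CPM in WT at day 0 and at 1045 and 765 CPM at day 5. In KO it stood at 338 and 304 CPM at day 0 and at 848 and 786 at day 5. The days did not overlap, and the rise was 1.38 ± 0.15 in WT (edgeR FDR 8.73e-06) and 1.35 ± 0.15 in KO (edgeR FDR 9.42e-06), a 2.60-fold and a 2.54-fold change. The *Psmb3* gene, at 0.33 in WT and 0.16 in KO, was called in neither.

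The cutting subunits of the standard core changed unequally. *Psmb7*, the trypsin-like site (chr2:38588036-38644087, minus strand, GRCm38), gave 82.5 and 62.2 CPM in WT at day 0, 79.9 and 77.1 in KO at day 0, 201 and 188 in WT at day 5, and 139 and 146 in KO at day 5. Every day 5 library was above every day 0 library, and the rise was 1.42 ± 0.15 in WT (edgeR FDR 7.57e-06) and 0.86 ± 0.15 in KO (edgeR FDR 0.000385). Of the *Psmb7* exon length 11.8% lies under exons of the other strand, and the strand setting of the counting is not known. *Psmb6*, the caspase-like site (chr11:70525367-70527858, plus strand), gave 494 and 501 CPM in WT at day 0, 448 and 510 in KO at day 0, 851 and 605 in WT at day 5, and 668 and 651 in KO at day 5.

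The *Psmb6* days did not overlap either, and it rose by 0.55 ± 0.15 in WT (edgeR FDR 0.0086) and by 0.46 ± 0.15 in KO (edgeR FDR 0.0207). With the GC and length offset those changes were 0.20 and 0.0028 and were not called. The WT call was also lost without either WT library of day 0 or replicate 1 of WT at day 5 (0.31), and the KO call with library totals (0.28) or without replicate 1 of KO at day 0 or either KO library of day 5. *Psmb5*, the chymotrypsin-like site (chr14:54614119-54618022, minus strand), gave 52.4 and 41.6 CPM in WT at day 0, 38.5 and 33.2 in KO at day 0, 58.2 and 33.7 in WT at day 5, and 42.5 and 32.6 in KO at day 5. Its days overlapped in both genotypes, and its log2 fold change was -0.02 ± 0.25 in WT and 0.06 ± 0.25 in KO. It was called under none of the 18 alternatives, over which it ranged from -0.46 (without replicate 1 of WT at day 5) to 0.34 (without replicate 2) in WT and from -0.40 (the offset) to 0.25 in KO. For *Psmb5* 54.1% of the 50-base stretches occur in other genes, so its level is uncertain.

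**Figure D3:**
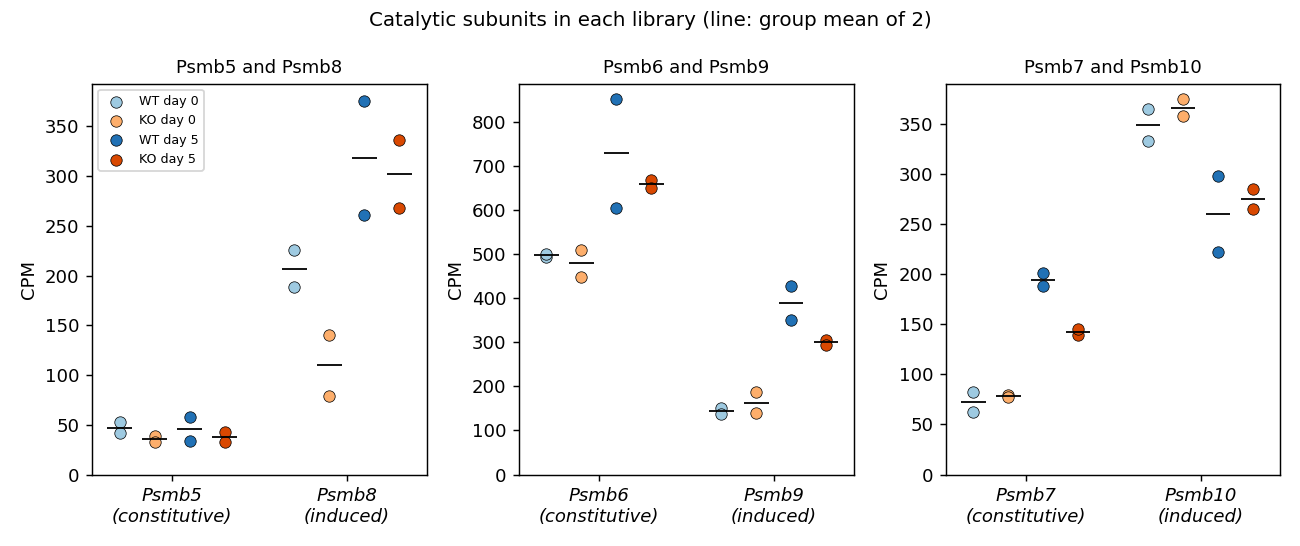
Each panel shows, in CPM from 0, a constitutive cutting subunit and the induced subunit that takes its place, with 1 point per library coloured by group and a line at the mean of the 2 libraries. *Psmb9* and *Psmb7* lie higher at day 5 in every library, *Psmb10* lies lower in every library, and *Psmb5* overlaps between days.

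The 3 induced subunits did not move together: *Psmb8* and *Psmb9* rose and *Psmb10* fell. *Psmb9*, which replaces *Psmb6* (chr17:34181987-34187764, minus strand, in the MHC), stood at 152 and 137 CPM in WT at day 0, 187 and 139 in KO at day 0, 350 and 428 in WT at day 5, and 306 and 294 in KO at day 5. No library of day 5 overlapped with day 0, and the rise was 1.43 ± 0.16 in WT (2.69-fold, edgeR FDR 1.15e-05) and 0.88 ± 0.16 in KO (1.84-fold, edgeR FDR 0.000483).

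*Psmb8*, which replaces *Psmb5* and lies beside *Psmb9* (chr17:34197721-34201454, plus strand), gave 189 and 225 CPM in WT at day 0, 141 and 79.3 in KO at day 0, 261 and 376 in WT at day 5, and 268 and 337 in KO at day 5. Replicates differed more than for *Psmb9*, although the days did not overlap. Its rise was 0.62 ± 0.24 in WT, at an edgeR FDR of 0.0482 that 9 of 18 alternative settings moved past 0.05 (0.000974 to 0.299), and 1.45 ± 0.24 in KO (edgeR FDR 0.000322). Exons on the other strand cover 14.7% of the *Psmb8* exon length, and the strand setting of the counting is not known. Among the settings that ended the WT call were leaving out either WT library of day 0, replicate 2 of WT at day 5 (0.37) or replicate 1 of KO at day 5, library totals, DESeq2 and the offset.

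*Psmb10*, which replaces *Psmb7* (chr8:105935735-105938444, minus strand), gave 365 and 333 CPM in WT at day 0, 358 and 374 in KO at day 0, 298 and 222 in WT at day 5, and 285 and 265 in KO at day 5. Each day 5 library lay below each day 0 library. It fell by 0.42 on the log2 scale in WT (SE 0.14, edgeR FDR 0.0272) and by 0.41 in KO (SE 0.14, edgeR FDR 0.0293). The call in WT was lost without either WT library of day 0 or without replicate 2 of WT at day 5 (-0.20, edgeR FDR 0.237), and in KO without any 1 of the KO libraries or WT libraries of day 0. The thymic subunit *Psmb11*, known from cortical epithelium, had 1 and 3 counts in the KO libraries of day 0 and 0 in the other 6 libraries, all at or under the floor of 3 counts.

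The ratio of each induced subunit to the subunit it replaces was formed in every library from counts per kb of the principal transcript. The *Psmb8* to *Psmb5* ratio was 1.99 and 2.99 in WT at day 0, 2.01 and 1.32 in KO at day 0, 2.48 and 6.15 in WT at day 5, and 3.48 and 5.71 in KO at day 5. The days overlapped at 1 library, replicate 1 of WT at day 5, and the log2 ratio was higher at day 5 by 1.06. The size of this ratio is uncertain, as 54.1% of the 50-base stretches of *Psmb5* and 11.9% of those of *Psmb8* occur in other genes. For *Psmb9* to *Psmb6* the ratio was 0.181 and 0.162 in WT at day 0, 0.246 and 0.161 in KO at day 0, 0.243 and 0.418 in WT at day 5, and 0.271 and 0.267 in KO at day 5.

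Here too the days overlapped at 1 library on each side, and the log2 ratio was higher at day 5 by 0.66. The *Psmb10* to *Psmb7* ratio was 3.91 and 4.74 in WT at day 0, 3.96 and 4.30 in KO at day 0, 1.31 and 1.04 in WT at day 5, and 1.82 and 1.61 in KO at day 5. It was lower at day 5 in every library, by -1.58 on the log2 scale. An exact permutation test of 4 against 4 libraries, two-sided, gave p = 0.0571, 0.0571 and 0.0286 for the 3 ratios in this order, the last being the smallest p this design allows. Adjusted over the 3 ratios by Benjamini-Hochberg, each exact p was 0.0571, so none passed 0.05. Within a genotype the differences were 0.68 in WT and 1.45 in KO for *Psmb8* to *Psmb5*, 0.90 and 0.43 for *Psmb9* to *Psmb6*, and -1.88 and -1.27 for *Psmb10* to *Psmb7*.

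Over the constitutive 20S subunits the median log2 fold change was 0.74 in WT and 0.71 in KO. The 19S cap had medians of 0.19 and 0.30. Of its 6 ATPases, the ring that unfolds the substrate, *Psmc1* and *Psmc6* rose in both genotypes. The *Psmc6* gene rose by 1.05 ± 0.12 in WT (edgeR FDR 1.49e-05) and 0.86 ± 0.12 in KO, and *Psmc1* by 0.64 and 0.65. The other 4 lay between -0.37 and 0.15 in WT and between -0.47 and -0.02 in KO. *Psmc5* was called in KO, where 274 and 256 CPM at day 0 became 212 and 169 at day 5, with no overlap.

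In WT *Psmc5* gave 299 and 293 CPM at day 0 and 271 and 186 at day 5. Its fall was 0.47 on the log2 scale in KO (that is -0.47, SE 0.17, edgeR FDR 0.034), and the value of -0.37 in WT was not called. Leaving out either library of WT at day 0, either of KO at day 0 or replicate 2 of KO at day 5 ended the call in KO, at an edgeR FDR of up to 0.276.

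Of the 11 other 19S subunits, 4 rose and 1 fell in WT, and 5 rose in KO. *Psmd7*, *Psmd8*, *Psmd12* and *Psmd14* rose in both and *Psmd2*, a docking subunit for ubiquitin shuttles, in KO. *Psmd14* encodes the enzyme that cuts ubiquitin chains from the substrate. For *Psmd8*, a lid subunit, the values were 137 and 134 CPM in WT at day 0, 111 and 124 in KO at day 0, 233 and 278 in WT at day 5, and 261 and 287 in KO at day 5. The days did not overlap, and the rise was 0.91 ± 0.13 in WT (edgeR FDR 0.00012) and 1.23 ± 0.13 in KO (edgeR FDR 9.06e-06).

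The ubiquitin receptor *Psmd4* gave 525 and 504 CPM in WT at day 0 and 404 and 351 at day 5, and 424 and 376 CPM in KO at day 0 and 389 and 361 at day 5. The days were apart in WT and overlapped in KO. It fell by 0.44 on the log2 scale in WT (SE 0.12, edgeR FDR 0.00942), and -0.09 in KO was not called. Without replicate 1 of WT at day 0 or replicate 2 of WT at day 5 the WT call was lost (edgeR FDR 0.0741 and 0.0702). The difference between genotypes in this change was 0.35 ± 0.17, with an edgeR FDR of 0.438. *Psmd1*, *Psmd3*, *Psmd6*, *Psmd11* and *Psmd13* were called in neither genotype.

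Of the 5 activators, alternative caps that open the core, 1 rose in WT and 0 in KO. Of all tested genes 24.7% were called higher in WT and 26.2% in KO, and nothing is read from the count of activators. *Psme2*, a subunit of the cap induced by interferon, gave 484 and 445 CPM in WT at day 0, 491 and 447 in KO at day 0, 685 and 551 in WT at day 5, and 478 and 461 in KO at day 5. Days were apart in WT and overlapped in KO, with changes of 0.41 ± 0.13 (edgeR FDR 0.0188) and -0.0008 ± 0.13. The WT call was lost with library totals and with the GC and length offset (0.11), and without either WT library of day 0 or without replicate 1 of WT at day 5 (0.27). In KO *Psme2* was called lower with the offset, at -0.37 (edgeR FDR 0.0257).

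The partner of *Psme2* in that cap, *Psme1*, gave 486 and 466 CPM in WT at day 0, 446 and 447 in KO at day 0, 451 and 351 in WT at day 5, and 408 and 374 in KO at day 5. The days were apart within each genotype. The differences of -0.25 in WT and -0.19 in KO were called in neither, and with library totals or the offset it was called lower in both, at up to -0.72. The near copy *Psme2b* shares 69.3% of its 50-base stretches with other genes, chiefly *Psme2*, and its changes of 0.08 and -0.24 were not called. The nuclear activator *Psme3* gave 32.7 and 40.3 CPM in WT at day 0, 31.6 and 40.9 in KO at day 0, 36.9 and 28.4 in WT at day 5, and 31.3 and 32.0 in KO at day 5.

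Those days overlapped in both genotypes, and neither change of *Psme3* was called. *Psme4*, the large single-chain activator, gave 57.4 and 43.2 CPM in WT at day 0, 44.4 and 50.3 in KO at day 0, 51.7 and 54.7 in WT at day 5, and 45.8 and 40.7 in KO at day 5. It overlapped between days in both genotypes. *Psmf1*, a protein that inhibits the isolated core, gave 226 and 218 CPM in WT at day 0, 197.6 and 225 in KO at day 0, 197.5 and 148 in WT at day 5, and 168 and 168 in KO at day 5. All day 5 values were below all day 0 values, and the changes of -0.36 and -0.33 were not called (edgeR FDR 0.0594 and 0.077).

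Assembly chaperones were called singly. *Psmg3* rose in WT (0.76 ± 0.22) and *Psmg4* in KO (0.81 ± 0.24), a pair that acts on the alpha ring, while *Psmg1* and *Psmg2* were called in neither. Of the chaperones of the 19S base, *Psmd9* rose in WT (0.47 ± 0.18), and *Psmd5* and *Psmd10* were called in neither. *Psmc3ip*, which is no subunit, rose by 0.99 in WT and 0.69 in KO. Exons on the other strand cover 25.5% of *Psmd9* and 21.2% of *Psmc3ip*.

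The genotype question was asked at each day. At day 0, 2 of the 48 differed, *Psmb4* and *Psmg4*, both lower in KO, where 1.8% of all tested genes were called in either direction. *Psmb4* is a structural beta subunit (chr3:94884093-94886961, minus strand). It stood at 38.6 and 36.6 CPM in WT at day 0, 17.8 and 14.9 in KO at day 0, 37.0 and 45.3 in WT at day 5, and 31.8 and 33.7 in KO at day 5. The KO libraries were the lower ones at both days, with no overlap, and KO at day 0 was lowest.

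The day 0 difference in *Psmb4* was -1.19 ± 0.19, 2.29-fold lower in KO (edgeR FDR 0.00627), and -0.33 ± 0.18 at day 5 was not called (edgeR FDR 0.463). In KO *Psmb4* rose with culture by 0.99 ± 0.19 (edgeR FDR 0.00079) and in WT it changed by 0.12 ± 0.18. The test of that difference gave 0.87 ± 0.26 with an edgeR FDR of 0.218. None of the 50-base stretches of *Psmb4* occurs in another gene.

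*Psmg4*, an assembly chaperone of the core (chr13:34162964-34178173, plus strand), gave 19.9 and 18.3 CPM in WT at day 0, 9.01 and 6.79 in KO at day 0, 17.5 and 16.4 in WT at day 5, and 13.4 and 14.8 in KO at day 5. KO lay below WT at both days. The day 0 difference was -1.25 ± 0.23, 2.37-fold lower in KO (edgeR FDR 0.0195), and that at day 5 was -0.27 ± 0.23. Without replicate 1 or without replicate 2 of WT at day 0, neither *Psmb4* nor *Psmg4* was called at day 0. Without replicate 2 of KO at day 0, *Psmg4* was not called. Each of these fits left 1 library in a group, and fewer of all tested genes were called in them. The log2 differences in those fits were -1.15 and -1.23 for *Psmb4*, and -1.19, -1.30 and -1.05 for *Psmg4*.

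Some other members were low in the second KO library before culture. For *Psmb8* it gave 79.3 CPM against 141 in replicate 1, and the KO against WT difference of -0.90 ± 0.24 at day 0 was not called (edgeR FDR 0.0968). With all libraries and no filter on low counts it was called lower in KO, at -0.85. For *Psmd3*, a lid subunit, it gave 1.65 CPM against 9.61, where WT at day 0 gave 11.5 and 14.0. Without replicate 1 of KO at day 0, which leaves only the low library, *Psmb8* and *Psmd3* were both called and the number lower in KO at day 0 became 4.

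With the called members included, 39 of the 48 had a negative KO against WT value at day 0 and 43 at day 5. Of all tested genes 50.2% and 50.0% were negative. The medians were -0.11 and -0.19, beside -0.002 and 0 over all tested genes. Both KO libraries lay below both WT libraries for 26 of the 48 at day 0 and for 20 at day 5, an arrangement that 21.7% and 20.7% of all tested genes showed. Both lay above for 1 member at day 0 and 0 at day 5. Of all 12597 tested genes, 2739 showed that arrangement at day 0 and 3143 at day 5.

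The day 5 shift moved with the WT libraries used. In WT at day 5, replicate 1 exceeded replicate 2 in 40 of the 48 members by a median log2 difference of 0.37, where the median over all tested genes was 0.02. Without replicate 1 the day 5 median of the 48 was 0.04, beside 0.05 over all genes, and without replicate 2 it was -0.36. The median change of the members with culture in WT also moved. It was 0.29 without replicate 1 of WT at day 5 and 0.55 without replicate 2, beside -0.04 and -0.03 over all genes. Without replicate 1 of WT at day 0 that median was 0.45, and without replicate 2 of WT at day 0 it was 0.37, beside -0.02 over all genes in both. In KO at day 5, replicate 1 exceeded replicate 2 in 36 of the 48 by a median of 0.11, beside -0.01 over all genes. At day 0 the replicate medians of the 48 differed by 0.06 in WT and 0.01 in KO.

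At day 5 edgeR called 0 of the 48 between genotypes, where 1.63% of all tested genes were called. The smallest edgeR FDR was 0.161 (*Psmb7*), and DESeq2 also called 0. In the genotype by day interaction edgeR called 0 of the 48, where 0.159% of all tested genes were called. There the smallest edgeR FDR was 0.218 (*Psmb4*), and DESeq2 called 0. The WT libraries enter both the genotype and the day comparisons, so these values are not independent of each other.

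**Figure D4:**
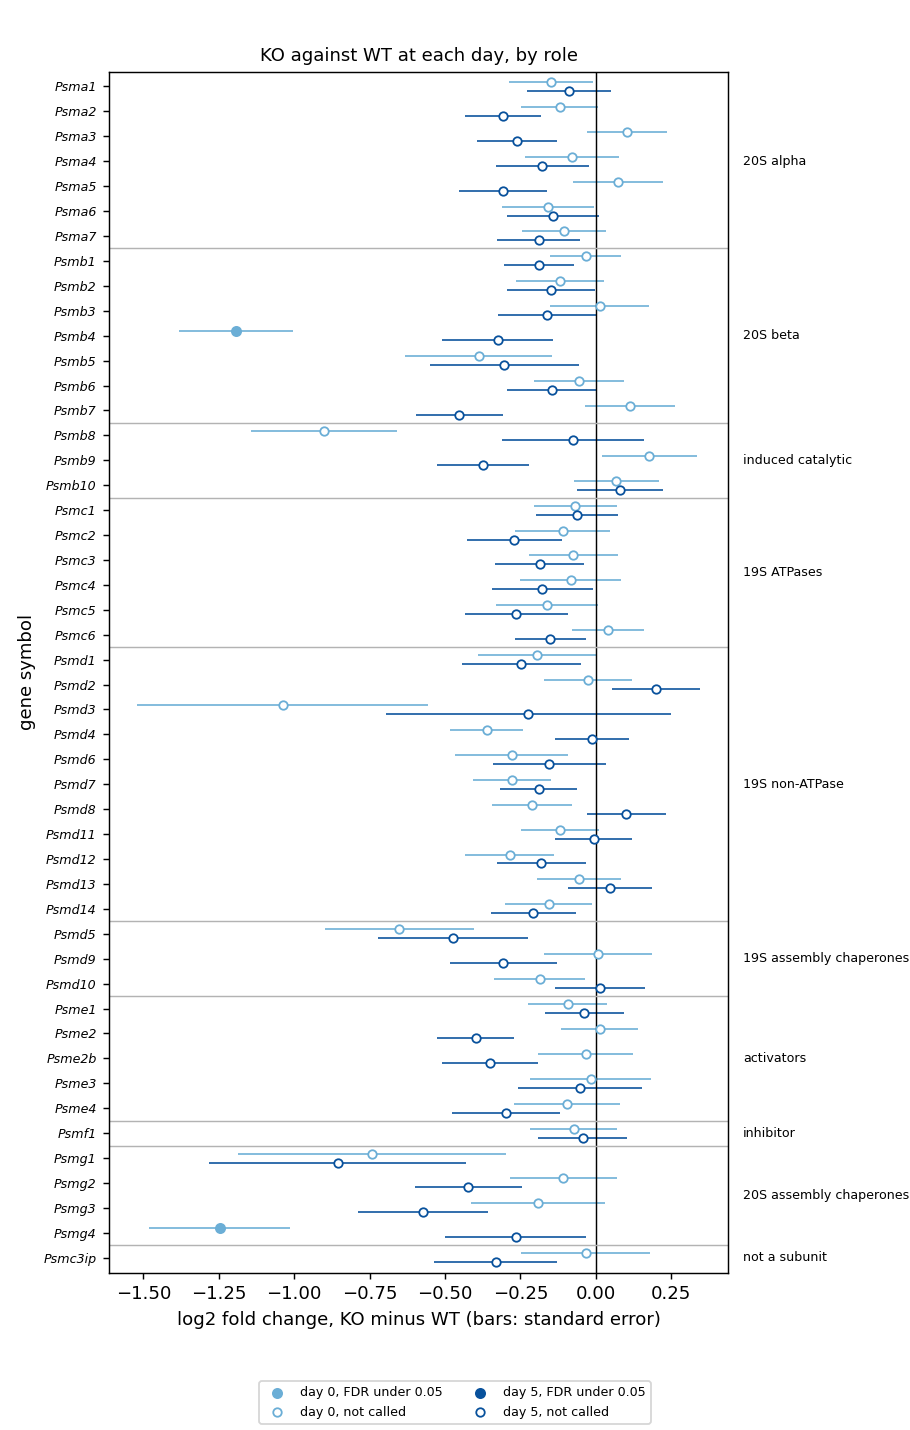
Points give the log2 fold change of KO against WT at day 0 (light) and day 5 (dark) for each tested symbol, bars its standard error, and filled points those called at an FDR under 0.05. Most points lie just left of 0 at both days, and *Psmb4* and *Psmg4* at day 0 are the filled ones.

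Subunits of a stoichiometric complex were not at like levels in these libraries. Per kb of the principal transcript and averaged over the 8 libraries, the 14 constitutive 20S subunits tested ranged from 27.0 CPM per kb (*Psmb4*) to 845 (*Psma7*), with a median of 231. Next above *Psmb4* was *Psmb5* at 46.3 CPM per kb, and then *Psma3* at 92.6. The level of *Psmb5* is uncertain, as 54.1% of its 50-base stretches occur in other genes. Reads that aligned to more than 1 place were not counted. The 17 subunits of the 19S cap ranged from 5.25 CPM per kb (*Psmd3*) to 313 (*Psmd4*), with a median of 164, and the next lowest was *Psmd1* at 88.3.

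Across all 48 members 10 were under 30 CPM per kb, among them *Psmb4*, *Psmg4*, *Psmg3*, *Psmg1*, *Psmd3*, *Psmd5* and *Psmd9*. The GC content of their principal transcripts had a median of 51.9%, against 49.4% for the other 38. Over the 48 the Spearman correlation between GC content and level was 0.01, a description over genes that share the same libraries. Between GC content and the change with culture it was -0.28 in WT and -0.09 in KO over the 48, -0.45 and -0.23 over the 14 constitutive 20S subunits, and -0.48 and -0.17 over the 17 subunits of the 19S cap.

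**Figure D5:**
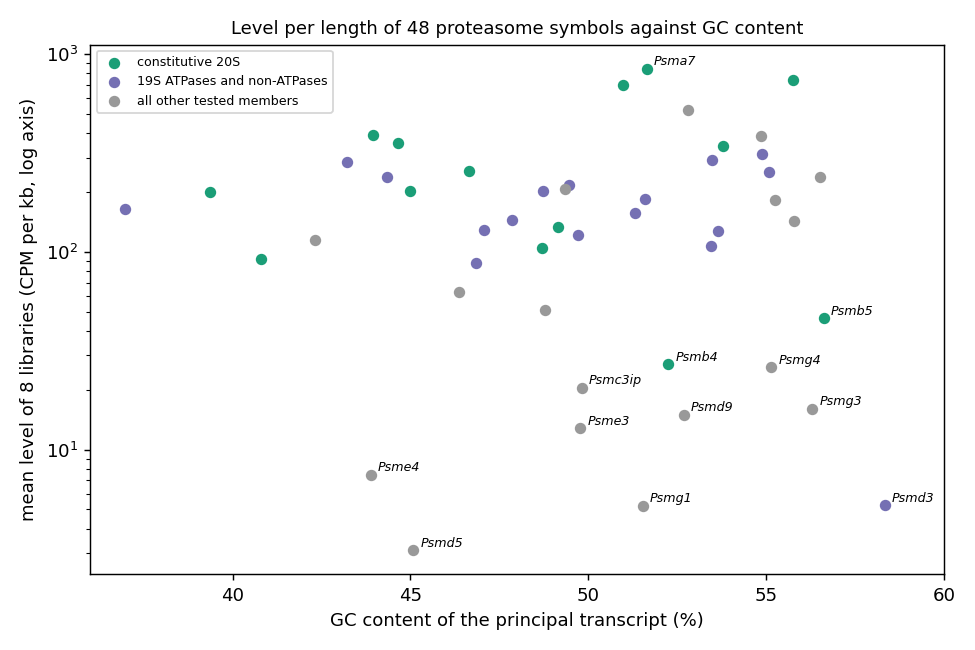
Each point is 1 of the 48 tested symbols, with the GC content of its principal transcript against its level in CPM per kb (mean of 8 libraries, log axis), coloured by place in the complex. Most 20S and 19S subunits lie between 88 and 845 CPM per kb, while *Psmb4*, *Psmb5* and *Psmd3* lie below them at 27.0, 46.3 and 5.25. For *Psmb5* 54.1% of the 50-base stretches occur in other genes, so its place is uncertain.

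Proteasome promoters are known targets of the factors NRF1, encoded by *Nfe2l1*, and NRF2, encoded by *Nfe2l2*, through the antioxidant response element, and CCAAT boxes bound by NF-Y are common in them. The 250 bases before each RefSeq start were searched on both strands (RefSeq promoters, GRCm38.p6) for TGACNNNGC (antioxidant response element), CCAAT, TTCNNNGAA (a STAT site) and TTCNNTTTC (core of an interferon response element). The table held promoters for 42 of the 50 symbols, 45 promoters in all, and lacked *Psma8*, *Psmb1*, *Psmb2*, *Psmb7*, *Psmc3*, *Psmd3*, *Psmd7* and *Psmg2*. TGACNNNGC occurred in 11.1% of the 45, against 10.2% of all 32851 promoters, and CCAAT in 33.3% against 33.8%. TTCNNNGAA occurred in 4.44% against 7.02%, and TTCNNTTTC in 6.67% against 7.13%. None of the 4 motifs was more frequent than in promoters at large by more than 1 percentage point.

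The 5 genes with TGACNNNGC were *Psmb5*, *Psmb6*, *Psmc6*, *Psmd9* and *Psmd12*, which span the range of changes with culture. *Psmb6*, *Psmc6* and *Psmd12* rose in both genotypes, *Psmd9* in WT, and *Psmb5* in neither. CCAAT lay in 15 genes, which also span the range. *Psma1*, *Psma2*, *Psma6*, *Psma7*, *Psmb9*, *Psmc1*, *Psmd14* and *Psmc3ip* rose in both genotypes and *Psma3* in WT, *Psmb3*, *Psmc2*, *Psmd10* and *Psme3* were called in neither, *Psmd4* fell in WT, and *Psmb11* was not tested. The STAT letters lay before *Psmb8* and *Psmg1*. Shown are 60-base stretches about the matches, where they are clear of annotated exons, for the TGACNNNGC genes and for 5 CCAAT genes, *Psma1*, *Psmc1* and *Psmd14* that rose, *Psmb3* that was called in neither genotype and *Psmd4* that fell in WT, 5′ to 3′ on the gene's strand with the match in capitals (a match on the other strand reads GCNNNGTCA or ATTGG). They lie at chr11:70525297-70525356 (*Psmb6*, plus strand), chr14:45329574-45329633 (*Psmc6*, plus), chr11:107479278-107479337 (*Psmd12*, plus), chr5:123228130-123228189 (*Psmd9*, plus), chr7:114276180-114276239 (*Psma1*, minus), chr12:100110002-100110061 (*Psmc1*, plus), chr2:61711510-61711569 (*Psmd14*, plus), chr11:97703324-97703383 (*Psmb3*, plus) and chr3:95042675-95042734 (*Psmd4*, minus).
Psmb6: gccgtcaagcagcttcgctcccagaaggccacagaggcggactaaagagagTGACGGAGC
Psmc6: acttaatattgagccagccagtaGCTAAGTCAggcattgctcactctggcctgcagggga
Psmd12: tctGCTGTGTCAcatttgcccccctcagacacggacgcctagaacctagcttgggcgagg
Psmd9: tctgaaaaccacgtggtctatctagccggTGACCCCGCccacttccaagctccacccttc
Psma1: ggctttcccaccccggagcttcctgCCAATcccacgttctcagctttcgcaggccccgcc
Psmc1: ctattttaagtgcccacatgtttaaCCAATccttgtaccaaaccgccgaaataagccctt
Psmd14: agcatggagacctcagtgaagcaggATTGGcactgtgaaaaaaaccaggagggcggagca
Psmb3: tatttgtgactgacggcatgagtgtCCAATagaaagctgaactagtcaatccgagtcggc
Psmd4: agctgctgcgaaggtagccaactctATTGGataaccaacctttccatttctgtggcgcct

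The match began 9 bases before the start in *Psmb6*, 31 in *Psmd9*, 227 in *Psmc6* and 247 in *Psmd12*, and these genes changed in WT by 0.55, 0.47, 1.05 and 0.76 on the log2 scale. A match is a description of these letters and not of a bound site.

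Genes that serve the complex under other names were counted from lists. Each count is to be read against all tested genes, of which 24.7% were called higher and 23.6% lower in WT, and 26.2% and 24.0% in KO. The lists of control genes, of shuttles and of peptide loading had shares of risers under or near these, and nothing is read from such a count. Of 8 further proteasome genes, 5 rose and 1 fell in each genotype: *Pomp*, which matures the core (0.67 in WT and 0.63 in KO), *Shfm1*, the small lid subunit (1.37 and 0.66), the deubiquitinases *Uchl5* (0.87 and 1.02) and *Usp14* (0.82 and 0.86), and *AI314180*, an adaptor of the complex (1.08 and 1.05), rose. *Ublcp1*, a phosphatase that acts on the proteasome, fell (-1.11 and -1.51). Its list had a median of 0.75 in WT and 0.65 in KO. *Adrm1*, a ubiquitin receptor of the cap, was lower in KO at day 0, at 9.78 and 11.7 CPM against 27.6 and 24.0 in WT, a difference of -1.27 ± 0.25 (edgeR FDR 0.0243).

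Of the 7 genes listed as controlling proteasome genes 0 rose in either genotype, and 1 fell in WT and 3 in KO, with medians of -0.39 and -0.36. *Ddi2*, the protease that activates NRF1, fell in both (-1.20 and -1.30), *Nfe2l2* and *Zfand2a* fell in KO, and *Nfe2l1* itself, at -0.39 and -0.26, was not called. Of 11 ubiquitin shuttle, unfoldase and ubiquitin genes, *Rad23b* rose in both (0.58 and 0.79), and *Ube3c* fell in KO (-0.74).

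Of 9 genes of peptide loading and its interferon control, 3 rose and 1 fell in WT, and 2 rose and 2 fell in KO. *Tap1*, the peptide transporter gene that lies between *Psmb8* and *Psmb9*, rose in both (0.42 and 0.85), and *B2m* in WT (0.41). *Ifng*, the gene of interferon gamma, rose in both, from 0.358 and 0.226 CPM to 16.1 and 7.95 in WT and from 0 in both libraries to 3.13 and 2.08 in KO. Its day 0 counts were under the floor of 3, so no fold is given for that rise. At day 5 *Ifng* was lower in KO than in WT by a log2 difference of -2.21 ± 0.47 (edgeR FDR 0.0429), the only genotype call of this list at that day. *Tapbp*, which links the transporter to MHC class I, fell in both (-1.29 and -0.57), and *Irf1* fell in KO (-0.998). The COP9 signalosome and the translation factor eIF3 are relatives of the 19S lid. Of 9 COP9 signalosome genes 6 rose and 1 fell in WT and 5 rose and 1 fell in KO, and of 13 tested eIF3 genes 6 rose and 0 fell in each. Medians were 0.47 and 0.52 for the first list and 0.28 and 0.33 for the second.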

How the data were processed

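Per the labels, total RNA of sorted CD8+ T cells was made into libraries with the NEBNext Ultra kit and read as 50 bases. The authors deposited, per library, a table of gene symbols with raw counts, not normalized or pooled. The submitters' processing notes name HISAT2 2.1.0, HTSeq 0.11.1 and mm10 (GRCm38). Annotation and strand setting are not given in the sources used here. Lines naming no gene were left out; of all records, 31.8% to 37.4% had been set aside as not uniquely aligned.

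Counts were tested in edgeR 4.0.16 (R 4.3.3): all 8 libraries in 1 quasi-likelihood fit with 4 group means, TMM factors and the default filter (minimum count 10), leaving 12597 genes; p-values were two-sided and adjusted by Benjamini-Hochberg over them (FDR), with calls under 0.05. The common biological coefficient of variation was 15.0%, and the edgeR fit was tested on simulated counts with known changes. Standard errors are |log2 fold change| divided by the root of F. The floor of 3 counts covers counting error alone, as the reads carried no molecular identifiers. Groups followed the labels. Ratios were compared by exact permutation (scipy 1.17.1). Levels per kb used the principal GENCODE M21 transcript, the longest where several tied.

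Members, lists and tests were chosen with earlier results of these data known. Values in every library are given for cutting subunits, activators, the inhibitor, members called between genotypes, *Psma8* and *Psmb11* (as counts), and the 5 called members of largest change in each direction per day comparison; *Psmd3* was named after its values were seen. Alternatives were DESeq2 size factors, library totals, no filter, 5 CPM in 2 libraries, the 4 libraries of a comparison alone, a replicate block, the edgeR 4 form, DESeq2 1.42.0, an offset for GC content and exon length (96.9% of genes), thinning to 4170126 counts, and leaving out each library.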

Additional observations from a re-analysis of the deposited data

Results flagged for a closer look

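The KO against WT value of *Psma3*, a subunit of the outer ring, changed sign between the days, and neither value was called. It was 0.10 ± 0.13 at day 0 (edgeR FDR 0.82) and -0.26 ± 0.13 at day 5 (edgeR FDR 0.413). *Psma3* gave 232 and 237 CPM in WT and 258 and 245 in KO at day 0. At day 5 it gave 346 and 275 in WT and 272 and 246 in KO. KO thus lay above WT without overlap at day 0 and below it without overlap at day 5. Of all 12597 tested genes, 2739 showed the first arrangement and 2604 the second. The *Psma3* interaction was -0.36 ± 0.19 and was not called (edgeR FDR 0.457). With culture, *Psmg4* values were lower at day 5 in every WT library and higher in every KO library. The WT change of -0.17 ± 0.23 was not called (edgeR FDR 0.564), and the KO change of 0.81 ± 0.24 was (edgeR FDR 0.013). The *Psmg4* interaction was 0.98 ± 0.33 and was not called (edgeR FDR 0.264).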

How the results depend on the processing

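Of 27 single-gene values, 14 kept their side of the threshold under all 18 alternatives, 10 lost the call and 3 gained one under at least 1, and 0 reversed as called values. The replicate block (numbers 1 and 2 of the labels) gave 2, 0, 25, 24 and 0 members called for KO against WT at day 0 and day 5, day 5 against day 0 in WT and in KO, and the interaction, as without it, and the *Psmb8* rise in WT was then not called (0.62, edgeR FDR 0.0547). The labels do not say that a number pairs libraries, and deviations of equally numbered libraries correlated at 0.12 and 0.23 between days and at 0.004 and -0.02 between genotypes. The day 0 count of 2 became 3 with no filter on low counts (*Psmb8* added) and 1 in the 4 libraries alone, and 0 to 4 when a library was left out. In WT the higher count of 23 became 13 with the GC and length offset (17 to 28 with a library left out), and the lower count of 2 became 5 with library totals, 7 with the offset and 1 in the 4 libraries alone (0 to 7 with a library left out). In KO the higher count of 22 became 13 with the offset (18 to 25), and the lower count of 2 became 7 with library totals and 8 with the offset (0 to 3 with a library left out). Totals ranged from 17 to 28 in WT and 18 to 28 in KO with a library left out, and day 5 genotype and interaction counts were 0 under all alternatives run. The *Psmb10* to *Psmb7* difference was -1.88 in WT alone and -1.27 in KO alone. With a library left out, the ratio differences ranged from 0.87 to 1.31 for *Psmb8* to *Psmb5*, 0.49 to 0.80 for *Psmb9* to *Psmb6* and -1.70 to -1.43 for *Psmb10* to *Psmb7*. With a library left out its group had no replicate, and fewer of all tested genes were called in the day and genotype comparisons using that group. The counts above are therefore not read as a result about the members alone. The cause of these movements was not tested. *Psmg1* and *Psmd3* had standard errors of 0.43 to 0.48, *Psmd3* with replicates of 9.61 and 1.65 CPM in KO at day 0. At this depth *Psma8* and *Psmb11* gave no more than 3 counts in any library, and no change in them was detectable.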
